A study of Mus musculus with 16 samples.

Results

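The genes described here are the tropomyosins, the class II myosin heavy chains, 2 of their light chains and the kinase that acts on a light chain: *Tpm1*, *Tpm2*, *Tpm3*, *Tpm4*, *Myh9*, *Myh10*, *Myh11*, *Myl6*, *Myl9* and *Mylk*. They were chosen by name, and all 10 were found among the 49452 genes of the expression tables. RNA was sequenced from cells that carried the red reporter tdTomato, sorted from the left lung of 16 mice, 4 in each of 4 groups. *Acta2-tdT* mice (Acta2-CreERT2; tdTomatoflox) carried a tamoxifen-dependent Cre recombinase driven by the promoter of *Acta2*, the gene of α-smooth muscle actin, and *Pdgfra-tdT* mice (Pdgfra-CreERT2; tdTomatoflox) carried it under the promoter of *Pdgfra*, a receptor of platelet-derived growth factor. Mice of each line were given saline or bleomycin, a drug that injures the lung and is followed by fibrosis, and were 11 weeks old when the lungs were taken 14 days later. The *Acta2-tdT* mice ate food with 400 mg/kg tamoxifen starting 5 days after the instillation, so cells that switched on *Acta2* during the injury could be labelled too. The *Pdgfra-tdT* mice had 5 intraperitoneal doses of 3 mg at 6 weeks of age, before the injury. Line and labelling schedule therefore changed together and cannot be told apart. All 4 groups carried the reporter and a Cre transgene and received tamoxifen, and the label stays on whether or not the promoter remains active.

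Tropomyosins are coiled-coil proteins that lie along actin filaments and decide which motors and severing proteins reach them. Class II myosins are the motors that slide actin filaments past each other: a pair of heavy chains carries the ATPase, and each head holds an essential light chain, such as the product of *Myl6*, and a regulatory light chain, such as the product of *Myl9*. Myosin light chain kinase, encoded by *Mylk*, phosphorylates the regulatory light chain when calcium rises in the cell and so starts contraction. *Myh11*, *Tpm2* and *Myl9* are forms typical of differentiated smooth muscle, the muscle of airway and vessel walls. *Myh9*, *Myh10*, *Tpm3* and *Tpm4* are the forms best known from non-muscle cells, where they build stress fibres and the cell cortex. *Tpm1*, *Myl6* and *Mylk* give rise to smooth muscle as well as non-muscle products from the same gene, and a value per gene does not separate these.

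Promoters of smooth muscle genes often hold a CArG box, the site bound by serum response factor, or the M-CAT site CATTCC, bound by TEAD factors. Promoters from RefSeq (build GRCm38.p6) matched 9 of the 10 genes, with 11 promoters in all, and the 250 bases before each start site were searched on both strands. No promoter matched *Myh11*, so that gene was not searched. Those of *Myl9* and *Tpm2*, which are smooth muscle forms, of *Tpm1*, which makes both kinds of product, and of *Tpm4*, which is a non-muscle form, are shown because these genes moved apart after bleomycin. They lie at chr2:156775214-156775463 (plus strand), chr4:43523555-43523804 (minus strand), chr9:67049214-67049463 (minus strand) and chr8:72135038-72135287 (plus strand). Capitals mark a CArG box in *Myl9*, which begins 161 bases before the start, and CATTCC, read on the opposite strand, in *Tpm1*, which begins 56 bases before it. These windows overlap the gene spans given below, as the start sites of the promoter set differ from those of the genes. The window of *Tpm1* lies mostly inside its gene span, and so does its CATTCC.
Myl9: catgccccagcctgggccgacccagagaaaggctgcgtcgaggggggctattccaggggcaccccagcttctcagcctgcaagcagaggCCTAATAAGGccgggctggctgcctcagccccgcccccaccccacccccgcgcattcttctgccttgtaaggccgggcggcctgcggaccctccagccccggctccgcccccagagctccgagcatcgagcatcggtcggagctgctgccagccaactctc
Tpm2: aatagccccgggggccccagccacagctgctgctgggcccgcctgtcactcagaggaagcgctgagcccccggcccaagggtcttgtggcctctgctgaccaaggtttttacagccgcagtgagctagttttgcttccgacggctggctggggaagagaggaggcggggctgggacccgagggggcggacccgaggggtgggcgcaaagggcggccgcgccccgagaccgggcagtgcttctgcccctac
Tpm1: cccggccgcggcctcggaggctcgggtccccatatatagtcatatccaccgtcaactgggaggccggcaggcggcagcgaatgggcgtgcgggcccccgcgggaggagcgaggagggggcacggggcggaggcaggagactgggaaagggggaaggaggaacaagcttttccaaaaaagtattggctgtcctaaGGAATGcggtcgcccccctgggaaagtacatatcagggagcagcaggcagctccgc
Tpm4: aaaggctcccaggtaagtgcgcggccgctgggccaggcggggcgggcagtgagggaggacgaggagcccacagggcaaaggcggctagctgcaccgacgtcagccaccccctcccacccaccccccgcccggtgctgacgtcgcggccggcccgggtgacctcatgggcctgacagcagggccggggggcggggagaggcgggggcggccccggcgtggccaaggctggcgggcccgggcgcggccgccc
A CArG box was present in 2 of the 11 promoters, that of *Myl9* and the downstream promoter of *Myl6*, and in 1.47% of all 32851 promoters of this length. CATTCC was present in those of *Tpm1*, *Myh10* and *Mylk*, and in 12.6% of all promoters. No CArG box or CATTCC was found in these windows of *Tpm2* and *Tpm4*. These matches describe letters in the sequence and not binding.

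Values are FPKM, fragments counted over a gene divided by transcript length and by the mapped fragments of the library, so levels of different genes can be set side by side per length. The summed FPKM of nuclear protein-coding genes differed widely between groups. In *Acta2-tdT* it was between 35602.5 and 57787.7 with saline and between 231058 and 463127 with bleomycin. In *Pdgfra-tdT* it was between 29963.6 and 59839.9 with saline and between 28512 and 137952 with bleomycin. The fold changes are therefore given on 2 scales: FPKM as deposited, and FPKM scaled so that this sum was 49122.5, the median of the 16 mice, in every mouse. Read counts were not used here and the depth is unknown. The 95% intervals given by Cufflinks, given here by their half-width, were at most 8.39% of the value for *Tpm1* in *Acta2-tdT* saline and 2.60% in *Acta2-tdT* bleomycin, and up to 53.2% in *Pdgfra-tdT* bleomycin. Values of *Pdgfra-tdT* mice are thus the less precise ones.

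The labels were compared with marker genes. *Acta2* lay between 139 and 314 FPKM with saline and between 1229 and 3211 with bleomycin in *Acta2-tdT*, and between 2.59 and 11.0 with saline and 0.831 and 19.4 with bleomycin in *Pdgfra-tdT*. With saline *Pdgfra* lay between 2.14 and 3.82 FPKM in *Pdgfra-tdT* and between 0.273 and 0.562 in *Acta2-tdT*. After bleomycin it was higher in *Acta2-tdT* as deposited, with 2.49 to 11.9 against 0.977 to 2.45 in *Pdgfra-tdT*. After scaling it was not, and the groups overlapped, with 0.529 to 1.26 in *Acta2-tdT* and 0.873 to 2.33 in *Pdgfra-tdT*. *Tcf21*, a marker of alveolar fibroblasts, did not exceed 0.868 FPKM in any mouse and was listed at 0 in every *Pdgfra-tdT* bleomycin mouse. Of 8 fibroblast markers, *Pdgfra* and *Tcf21* included, 7 were tested with saline. *Pdgfra* was lower in *Acta2-tdT* and *Lum* higher (limma), where 15 of all 8153 genes tested were lower and 222 higher. With bleomycin 6 of 7 were higher in *Acta2-tdT* after scaling, against 15.8% of all genes. Their scaled sum ranged from 12.6 to 47.5 with saline and from 4.38 to 65.7 with bleomycin in *Pdgfra-tdT*. In *Acta2-tdT* it ranged from 27.6 to 37.5 and from 240.5 to 358. *Pdgfra-tdT* saline mouse 3 and *Pdgfra-tdT* bleomycin mouse 5 stood apart from the rest of their groups. Their scaled sums of 8 endothelial markers were 460.2 and 471, where the other saline mice of that line had 10.04 to 24.4 and the other bleomycin mice 10.3 to 149. Some of the results that rest on these mice are also given without them.

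**Figure D1:**
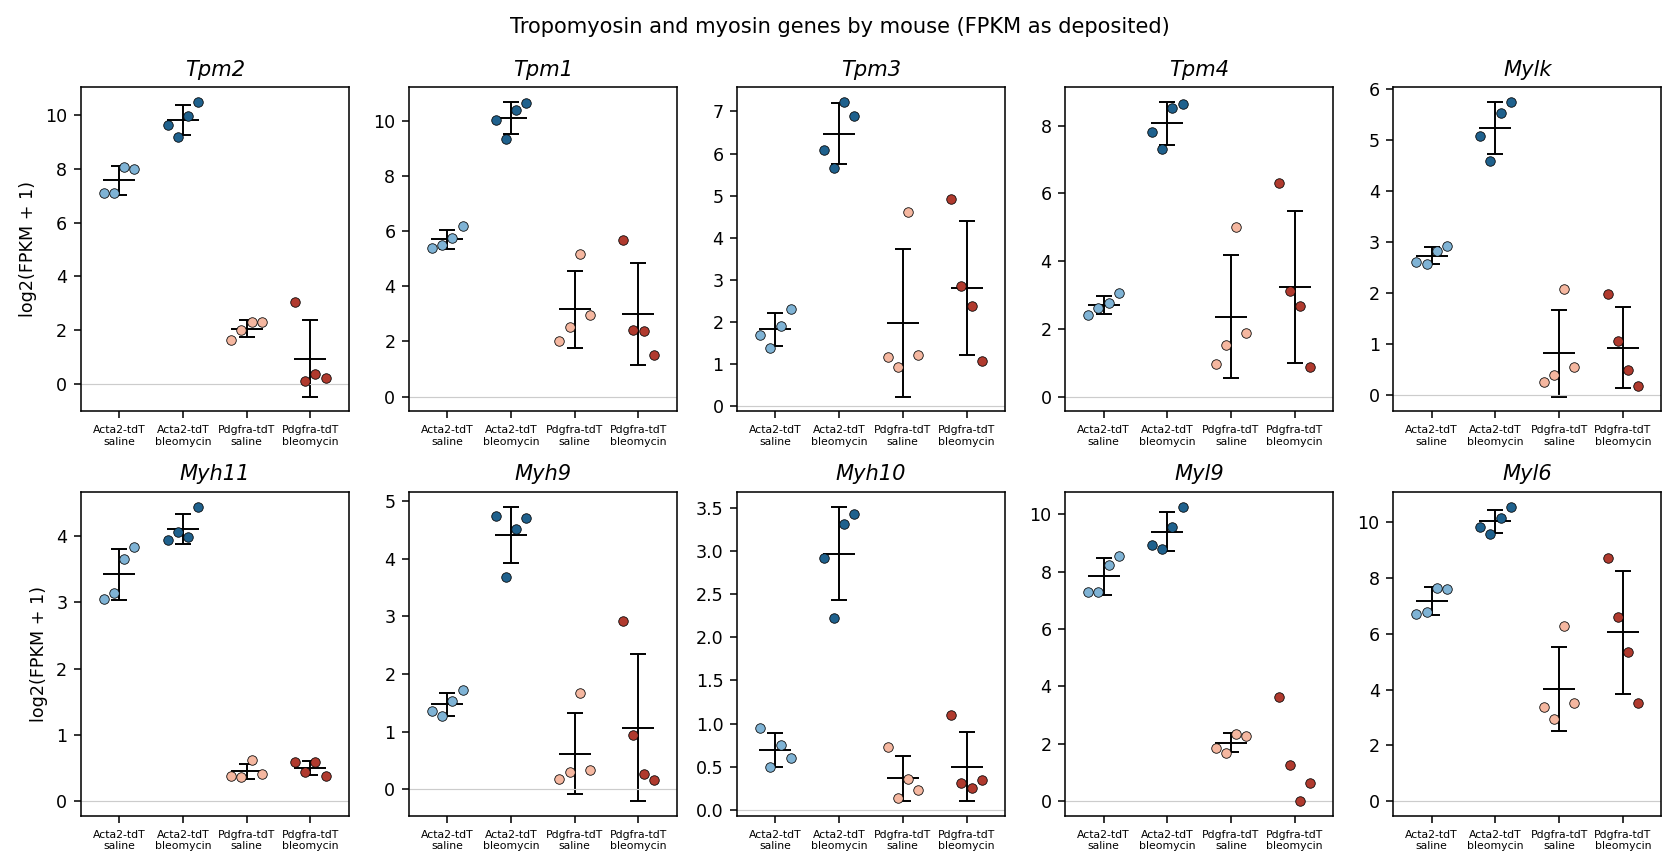
Expression of the 10 genes in each mouse, as log2(FPKM + 1) with FPKM as deposited. Points are mice in the order of their numbers, and bars are the mean and SD of 4 mice, left out for *Myl9* in *Pdgfra-tdT* bleomycin, where mouse 7 was listed at 0. *Acta2-tdT* bleomycin mice lay highest for all 10 genes, and mouse 3 of *Pdgfra-tdT* saline and mouse 5 of *Pdgfra-tdT* bleomycin lay above the rest of their groups for most genes.

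*Tpm2* (chr4:43514711-43523595) was among the most abundant of the 10 genes in *Acta2-tdT* cells, with 135, 137, 269 and 258 FPKM in saline mice 1 to 4 and 804, 587, 1014 and 1447 in bleomycin mice 5 to 8. In *Pdgfra-tdT* cells it stood at 2.04, 3.03, 3.93 and 3.88 FPKM in the saline mice and at 7.33, 0.0720, 0.288 and 0.160 in the bleomycin mice. All *Acta2-tdT* mice were far above all *Pdgfra-tdT* mice, and in *Pdgfra-tdT* bleomycin only mouse 5 was above the saline mice. The log2 fold change between the lines was 5.52 ± 0.41 (SE, limma, adjusted p = 0.000924) with saline and 8.90 ± 0.88 (adjusted p = 4.78e-05) with bleomycin. Scaling left these at 5.38 ± 0.48 and 6.34 ± 0.53, both past the threshold. With bleomycin *Tpm2* reached 1 FPKM in *Pdgfra-tdT* only in mouse 5. It entered that fit through the *Acta2-tdT* mice, where it was high, so the value with bleomycin describes its level there. The difference between bleomycin and saline in *Acta2-tdT* depended on the scale, at 2.26 ± 0.43 (adjusted p = 0.000557) as deposited and -0.72 ± 0.28 (adjusted p = 0.0505) scaled. On the scaled values the groups did not overlap, with 180.2 to 272 in saline and 114 to 153 in bleomycin mice. In *Pdgfra-tdT* the fold change was -1.12 ± 0.67 (adjusted p = 0.791), and -1.68 ± 0.49 (adjusted p = 0.594) scaled. Scaled values of this line did not overlap either, with 3.22 to 5.28 in saline and 0.0712 to 2.61 in bleomycin mice.

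*Tpm1* (chr9:67022590-67049406) had 41.0, 44.2, 52.5 and 71.2 FPKM in *Acta2-tdT* saline and 1037, 639, 1343 and 1615 FPKM in *Acta2-tdT* bleomycin. *Pdgfra-tdT* mice had 3.03, 4.78, 34.9 and 6.74 FPKM with saline and 49.8, 4.36, 4.23 and 1.82 FPKM with bleomycin. In the *Pdgfra-tdT* groups mouse 3 and mouse 5 were several times above the others, and the groups overlapped. In *Acta2-tdT* the rise with bleomycin was 4.40 ± 0.41 on the log2 scale (SE, limma, adjusted p = 1.52e-05), and it remained after scaling at 1.41 ± 0.26 (adjusted p = 0.00123), when the mice lay between 53.2 and 61.0 with saline and between 136 and 171 with bleomycin. Between the lines the log2 fold change was 2.54 ± 0.69 (adjusted p = 0.124) with saline, and 2.38 ± 0.60 (adjusted p = 0.0737) scaled. It was 7.10 ± 1.02 (adjusted p = 0.000186) with bleomycin and 4.47 ± 0.63 (adjusted p = 0.00166) after scaling. Without *Pdgfra-tdT* saline mouse 3 the difference with saline was 3.20 and passed the test (adjusted p = 0.00260).

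*Tpm4* (chr8:72135259-72153142) and *Tpm3* (chr3:90072649-90100902) were low in *Acta2-tdT* saline and rose most of the 10 genes with bleomycin. *Tpm4* had 4.30, 5.12, 5.80 and 7.26 FPKM in the saline mice and 224, 156, 364 and 399 in the bleomycin mice of this line. *Tpm3* had 2.22, 1.62, 2.77 and 3.97 FPKM with saline and 66.9, 49.2, 149 and 118 with bleomycin. The rise was 5.36 ± 0.41 for *Tpm4* (SE, limma, adjusted p = 1.14e-05) and 4.64 ± 0.43 for *Tpm3* (adjusted p = 1.5e-05) on the log2 scale, and 2.42 ± 0.23 (adjusted p = 2.61e-05) and 1.80 ± 0.23 (adjusted p = 0.000116) after scaling. On the scaled values *Tpm4* lay between 5.73 and 7.06 with saline and between 33.3 and 42.3 with bleomycin, so the groups were apart on either scale. In *Pdgfra-tdT*, *Tpm4* had 0.965, 1.89, 31.4 and 2.70 FPKM with saline and 77.2, 7.62, 5.42 and 0.823 with bleomycin. *Tpm3* had 1.27, 0.920, 23.6 and 1.32 FPKM with saline and 29.3, 6.19, 4.24 and 1.10 with bleomycin. Here the saline and bleomycin groups overlapped, and neither gene passed the test (adjusted p of 0.809 and 0.796). Between the lines with saline the fold changes were 0.35 ± 0.82 for *Tpm4* (adjusted p = 0.886) and -0.16 ± 0.80 for *Tpm3* (adjusted p = 0.962), and 0.25 and -0.26 scaled. Without *Pdgfra-tdT* saline mouse 3 they were 1.24 (adjusted p = 0.0166) and 0.71 (adjusted p = 0.0623). With bleomycin *Acta2-tdT* mice were higher by 4.83 ± 1.09 for *Tpm4* (adjusted p = 0.00206) and by 3.66 ± 0.88 for *Tpm3* (adjusted p = 0.00295). After scaling these were 2.26 ± 0.72 (adjusted p = 0.0347) and 1.12 ± 0.51 (adjusted p = 0.109), so that of *Tpm3* no longer passed. The gene body of *Tpm4* overlaps a pair of genes on the opposite strand, and reads of the strands cannot be told apart in libraries of this kind. Those partners, Gm26586 and Gm16091, reached at most 15.6 and 10.6 FPKM in any group.

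*Myh11* (chr16:14194527-14291408), the smooth muscle heavy chain, was the gene with the smallest rise in *Acta2-tdT* cells after bleomycin as deposited. It had 7.31, 7.80, 11.6 and 13.2 FPKM in the saline mice and 14.4, 15.6, 14.8 and 20.7 in the bleomycin mice, a difference of 0.69 ± 0.33 on the log2 scale (SE, limma, adjusted p = 0.0694), although the groups did not overlap. In *Pdgfra-tdT* mice it was at 0.305, 0.291, 0.543 and 0.334 FPKM with saline and at 0.501, 0.355, 0.505 and 0.307 with bleomycin, too low for a test of bleomycin in that line. The direction in *Acta2-tdT* turned with the scale: scaled values were 9.74, 10.8, 11.8 and 11.2 with saline and 2.22, 3.32, 1.66 and 2.201 with bleomycin, lower by 1.84 ± 0.21 on the log2 scale (adjusted p = 6.59e-05). *Myh11* thus rose less than the typical gene, whose median log2 fold change was 1.76 as deposited and -0.02 scaled. Between the lines the log2 fold change was 2.97 ± 0.26 (adjusted p = 0.00162) with saline and 3.61 ± 0.37 (adjusted p = 4.99e-05) with bleomycin, and 3.01 ± 0.26 (adjusted p = 0.000803) and 1.24 ± 0.25 (adjusted p = 0.00599) after scaling. *Myh11* entered the fits between the lines through the *Acta2-tdT* mice, where it was high, so these values describe its level there.

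*Myh9* (chr15:77760587-77842175), the heavy chain of non-muscle myosin IIA, had 1.57, 1.42, 1.88 and 2.31 FPKM in *Acta2-tdT* saline and 25.6, 11.9, 21.8 and 25.05 in *Acta2-tdT* bleomycin. *Myh10* (chr11:68691915-68816632), that of myosin IIB, had 0.928, 0.412, 0.681 and 0.516 FPKM with saline and 6.53, 3.67, 8.97 and 9.74 with bleomycin. Each bleomycin mouse was above each saline mouse for these genes, and after bleomycin *Myh9* had passed *Myh11* in 3 of 4 mice. The rise was 2.94 ± 0.32 for *Myh9* (SE, limma, adjusted p = 2.24e-05) and 2.27 ± 0.30 for *Myh10* (adjusted p = 5.66e-05) on the log2 scale, and after scaling 0.37 ± 0.17 (adjusted p = 0.0956) and 0.19 ± 0.15 (adjusted p = 0.306). In *Pdgfra-tdT*, *Myh9* had 0.131, 0.230, 2.17 and 0.267 FPKM with saline and 6.55, 0.922, 0.208 and 0.118 with bleomycin. *Myh10* had 0.656, 0.103, 0.287 and 0.173 FPKM with saline and 1.14, 0.240, 0.191 and 0.273 with bleomycin. Except in mouse 3 and mouse 5 these were at or under about 1 FPKM, and bleomycin was not tested for them in this line. Between the lines *Myh9* differed by 0.85 ± 0.34 with saline (adjusted p = 0.321, and 0.91 ± 0.28 with 0.144 scaled) and by 3.34 ± 0.64 with bleomycin (adjusted p = 0.000825), the latter at 1.14 ± 0.36 after scaling (adjusted p = 0.0355). *Myh9* reached 1 FPKM in *Pdgfra-tdT* only in mouse 3 with saline and mouse 5 with bleomycin. It entered these fits through the *Acta2-tdT* mice, so the values describe its level there. *Myh10* was tested between the lines with bleomycin, at 2.47 ± 0.38 (adjusted p = 0.000274) and, scaled, 0.56 ± 0.16 (adjusted p = 0.0234), and not with saline, where too few mice reached 1 FPKM. It entered the fits with bleomycin mice through the *Acta2-tdT* bleomycin group, where it was high, so these values describe that group's level. A small nuclear RNA gene lies inside *Myh9* on the same strand and was itself listed at up to 286 FPKM.

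*Myl9* (chr2:156775420-156781658), a regulatory light chain of smooth muscle, had 156, 154, 297 and 369 FPKM in *Acta2-tdT* saline and 489.9, 440.3, 754 and 1226 in *Acta2-tdT* bleomycin. *Pdgfra-tdT* mice had 2.60, 2.19, 4.10 and 3.81 FPKM with saline, and 11.4, 1.41, 0 and 0.549 with bleomycin, where mouse 7 was listed at 0. The lines were apart with either agent, by 5.79 ± 0.43 (SE, limma, adjusted p = 0.000924) with saline and 8.003 ± 0.92 (adjusted p = 7.16e-05) with bleomycin on the log2 scale, and by 5.66 ± 0.48 and 5.43 ± 0.58 scaled. Bleomycin mice of *Acta2-tdT* were higher by 1.56 ± 0.47 (adjusted p = 0.00982) as deposited and lower by 1.42 ± 0.31 (adjusted p = 0.00332) scaled, with scaled values of 208 to 313 against 75.6 to 130.0. In *Pdgfra-tdT* the fold change was -0.65 ± 0.74 (adjusted p = 0.791), and -1.196 ± 0.55 (adjusted p = 0.776) scaled.

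*Myl6* (chr10:128490860-128493875), the essential light chain, was the most abundant of the 10 genes in *Pdgfra-tdT* cells. It had 9.26, 6.79, 75.8 and 10.5 FPKM with saline and 424, 95.7, 39.4 and 10.5 FPKM with bleomycin there, and 105, 107, 197 and 193 FPKM with saline and 906, 765, 1135 and 1502 FPKM with bleomycin in *Acta2-tdT*. The *Pdgfra-tdT* groups overlapped, and the fold change there was 2.02 ± 1.21 (SE, limma, adjusted p = 0.791). In *Acta2-tdT* it was 2.85 ± 0.40 (adjusted p = 7.85e-05) as deposited and -0.14 ± 0.27 (adjusted p = 0.690) scaled, when the saline mice lay between 139.5 and 199 and the bleomycin mice between 128 and 163. Between the lines *Myl6* differed by 3.15 ± 0.75 with saline (adjusted p = 0.0779), which passed after scaling (2.96 ± 0.64, adjusted p = 0.0431). With bleomycin the difference was 3.98 ± 1.10 (adjusted p = 0.00614), and it did not pass after scaling (1.30 ± 0.75, adjusted p = 0.200).

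*Mylk* (chr16:34784921-35002420) had 5.11, 4.91, 6.12 and 6.61 FPKM in *Acta2-tdT* saline and 32.5, 23.1, 44.7 and 52.4 in *Acta2-tdT* bleomycin. *Pdgfra-tdT* mice had 0.195, 0.311, 3.21 and 0.474 FPKM with saline and 2.97, 1.08, 0.420 and 0.134 with bleomycin. All *Acta2-tdT* mice were above all *Pdgfra-tdT* mice, and the rise with bleomycin in *Acta2-tdT* was 2.49 ± 0.35 on the log2 scale (SE, limma, adjusted p = 8.45e-05). After scaling it was -0.26 ± 0.18 (adjusted p = 0.253), although each scaled bleomycin mouse, at 4.90 to 5.55, was below each scaled saline mouse, at 5.62 to 6.82. Between the lines the log2 fold change was 1.91 ± 0.42 with saline (adjusted p = 0.0564), past the threshold after scaling (1.98 ± 0.37, adjusted p = 0.0214). With saline *Mylk* reached 1 FPKM in *Pdgfra-tdT* only in mouse 3. It entered that fit through the *Acta2-tdT* mice, so the value with saline describes its level there. The log2 fold change between the lines was 4.29 ± 0.56 with bleomycin (adjusted p = 0.000123), and 1.87 ± 0.30 (adjusted p = 0.00278) scaled. The gene body of *Mylk* overlaps 3 antisense genes. Of these, 1700119H24Rik did not exceed 0.899 FPKM in any mouse.

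With saline, 3 of the 9 genes tested were higher in *Acta2-tdT* by limma, namely *Myh11*, *Tpm2* and *Myl9*, where 2.72% of all genes tested were higher. After scaling *Myl6* and *Mylk* joined them, which made 5 of 9 against 3.2%. Every *Acta2-tdT* mouse was above every *Pdgfra-tdT* mouse for 6 genes, these 5 and *Tpm1*, against 6.56% of all genes tested. With bleomycin all 10 were higher in *Acta2-tdT*, but so were 71% of all genes tested, and without overlap all 10 again against 56.8%. After scaling 8 of 10 were higher against 15.8%, and *Myl6* and *Tpm3* were not called. The median log2 fold change of the genes tested was 2.54 with saline and 4.14 with bleomycin, beside 0.17 and 1.81 over all genes tested. Without *Pdgfra-tdT* saline mouse 3, 8 genes were called with saline, where 2141 of all 7356 genes tested were called. Without *Pdgfra-tdT* bleomycin mouse 5 the number with bleomycin was 10, where 9952 of 11221 were called. *Myh11* was under 1 FPKM in all *Pdgfra-tdT* mice and passed the filter on low values through the *Acta2-tdT* mice. With bleomycin *Tpm2*, *Myh9* and *Myh10* reached 1 FPKM in *Pdgfra-tdT* only in mouse 5. With saline *Myh9* and *Mylk* did so only in mouse 3. A count over the genes tested is therefore a description.

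In *Acta2-tdT* cells 9 of 10 genes were higher with bleomycin as deposited, where 70.4% of all genes tested were higher. In all 10, *Myh11* included, every bleomycin mouse was above every saline mouse, as in 67.8% of all genes tested. *Myh10* entered this fit through the bleomycin mice, as no saline mouse of this line reached 1 FPKM. After scaling *Tpm4*, *Tpm3* and *Tpm1* were higher, which is 3 of 10 against 23.9% of all genes, and *Myh11* and *Myl9* were lower, which is 2 of 10 against 32.6%. Without overlap 4 were higher (*Tpm1*, *Tpm3*, *Tpm4* and *Myh9*), against 21.5%, and 4 were lower (*Tpm2*, *Myh11*, *Myl9* and *Mylk*), against 29.6%. These shares are near those of all genes, so the counts alone set nothing apart about the 10 genes. The median log2 fold change over the 10 genes was 2.67 as deposited and 0.03 scaled, beside 1.76 and -0.02 over all genes tested. In *Pdgfra-tdT* cells 6 genes were tested, the 4 tropomyosins, *Myl6* and *Myl9*, and 0 were called by limma on either scale, where 0.124% of all genes as deposited and 0.137% scaled were called. At an unadjusted p under 0.05, 0 of the 6 passed as deposited and 1, *Tpm2*, passed after scaling (limma, adjusted p = 0.594). Their standard errors ran from 0.67 to 1.28 as deposited, against 0.40 to 0.47 for the same genes in *Acta2-tdT*.

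**Figure D2:**
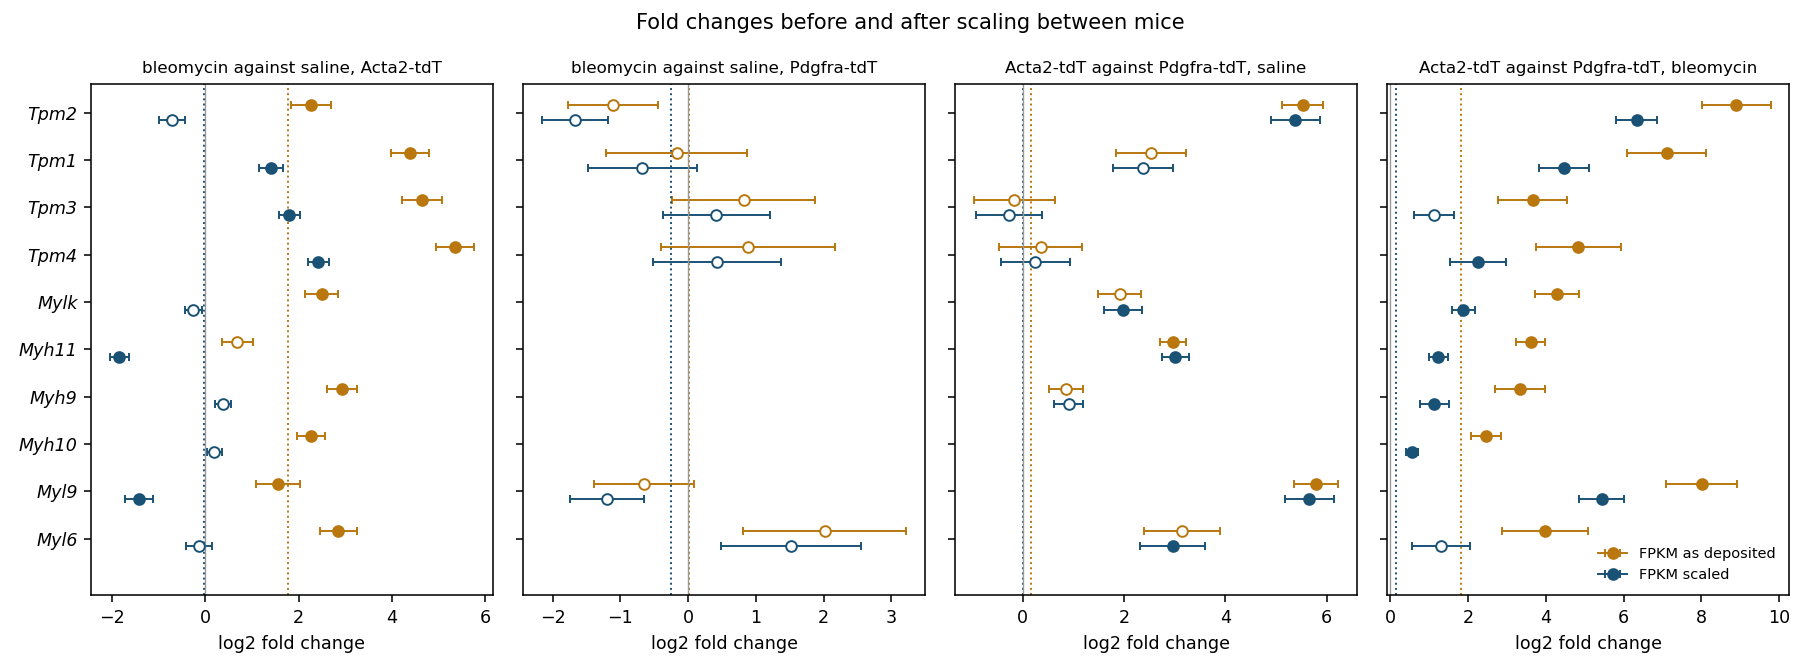
Log2 fold changes of the 10 genes in 4 comparisons (limma on log2(FPKM + 1), error bars are SE), with FPKM as deposited in orange and scaled to the same nuclear protein-coding sum in blue. Filled points have an adjusted p under 0.05, dotted lines are the median of all genes tested, and genes without a point were not tested. In *Acta2-tdT* after bleomycin the scaled values of *Myh11* and *Myl9* lie below 0 and those of *Tpm1*, *Tpm3* and *Tpm4* above it.

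The interaction of line and agent, fitted over the 16 mice, asked whether bleomycin acted differently on the lines. As deposited, 7 of 10 genes rose more in *Acta2-tdT* (limma), against 36.6% of all genes tested. They were *Tpm1* (4.57 ± 1.21 on the log2 scale, adjusted p = 0.00883), *Tpm4* (4.48 ± 1.42, adjusted p = 0.0222), *Tpm3* (3.82 ± 1.20, adjusted p = 0.0214), *Tpm2* (3.38 ± 0.92, adjusted p = 0.0102), *Myh9* (2.48 ± 0.75, adjusted p = 0.0177), *Mylk* (2.38 ± 0.67, adjusted p = 0.0121) and *Myh10* (2.13 ± 0.40, adjusted p = 0.00109). *Myh10* entered this fit through the *Acta2-tdT* bleomycin mice, where it was high, so its value describes that group's level. After scaling 1 of 10 was called, against 2.22% of all genes in either direction. It was *Myh11*, at -1.77 ± 0.32 (adjusted p = 0.00831). *Myh11* was at most 0.543 FPKM in every *Pdgfra-tdT* mouse of either agent and could hardly be lower there, so this value largely restates its scaled difference within *Acta2-tdT*.

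The ratio of forms within a mouse does not depend on the scaling. In *Acta2-tdT* saline, *Myh11* made up 74.5%, 80.9%, 81.9% and 82.4% of the summed FPKM of the 3 heavy chains in mice 1 to 4, and in *Acta2-tdT* bleomycin 30.9%, 50.1%, 32.4% and 37.4% in mice 5 to 8. The groups were apart, at 79.9% ± 3.7 and 37.7% ± 8.7 (SD, n = 4, exact two-sided permutation test p = 0.0286, adjusted p = 0.0381). The difference was taken up mostly by *Myh9*, which went from 14.6% ± 1.1 to 46.5% ± 7.0, and *Myh10* went from 5.44% ± 2.8 to 15.8% ± 3.5. In *Pdgfra-tdT* the share of *Myh11* was 34.0% ± 13 with saline and 32.3% ± 22 with bleomycin (SD, n = 4, exact permutation test p = 0.914). These shares rest on levels under 1 FPKM in most mice.

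*Tpm2* made up 74.0%, 72.9%, 81.5% and 75.8% of the FPKM of the 4 tropomyosins in *Acta2-tdT* saline and 37.7%, 41.0%, 35.3% and 40.4% in *Acta2-tdT* bleomycin. No mouse of either group came near the other, and the means were 76.0% ± 3.8 and 38.6% ± 2.6 (SD, n = 4, exact permutation test p = 0.0286, adjusted p = 0.0381). *Tpm1* went from 20.7% ± 3.4 to 46.3% ± 1.8, *Tpm4* from 2.24% ± 0.40 to 11.3% ± 0.96 and *Tpm3* from 1.02% ± 0.20 to 3.77% ± 0.95 of the tropomyosins. In *Pdgfra-tdT*, *Tpm2* made up 28.0%, 28.5%, 4.19% and 26.5% with saline and 4.48%, 0.395%, 2.03% and 4.10% with bleomycin. Mouse 3, with 4.19%, was below bleomycin mouse 5, so the groups overlapped (exact permutation test p = 0.0571, adjusted p = 0.0686). In those cells *Tpm4* was at 20.7% ± 8.8 with saline and 37.1% ± 11 with bleomycin, and *Tpm3* at 15.0% ± 7.8 and 27.5% ± 6.8 (SD, n = 4).

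*Myl9* made up 59.9%, 58.8%, 60.1% and 65.6% of the FPKM of *Myl6* and *Myl9* in *Acta2-tdT* saline and 35.1%, 36.5%, 39.9% and 44.9% in *Acta2-tdT* bleomycin (61.1% ± 3.1 and 39.1% ± 4.4, SD, n = 4, exact permutation test p = 0.0286, adjusted p = 0.0381). In *Pdgfra-tdT* it made up 21.9%, 24.4%, 5.13% and 26.7% with saline and 2.62%, 1.45%, 0% and 4.99% with bleomycin. The groups did not overlap (exact permutation test p = 0.0286, adjusted p = 0.0381), by a narrow margin between saline mouse 3 and bleomycin mouse 8. The share rests on *Myl9* at 0 and 0.549 FPKM in bleomycin mice 7 and 8, and the log2 ratio of *Myl9* to *Myl6* did not pass (exact permutation test p = 0.0571). *Myl6* and *Myl9* are an essential and a regulatory light chain, and each myosin head holds both kinds. Their ratio therefore does not set a smooth muscle form against its non-muscle counterpart. *Myl12a*, a non-muscle regulatory light chain, was not part of it. A p of 0.0286 is the smallest that 4 against 4 mice can give over 70 labellings, and 12 comparisons of shares were made. Between the lines the shares of *Tpm2* and *Myl9* were apart with either agent, and that of *Myh11* was apart with saline (p = 0.0286 for each) and not with bleomycin (exact permutation test p = 0.657). A share is lower with less of the smooth muscle form, with more of the other forms, or with both. As deposited, *Tpm2*, *Myl9* and *Myh11* were higher in every *Acta2-tdT* bleomycin mouse than in every *Acta2-tdT* saline mouse. After scaling they were lower without overlap. *Tpm1*, *Tpm3*, *Tpm4* and *Myh9* were higher without overlap on both scales, and scaled *Myl6* and *Myh10* overlapped. The cause of the lower shares was not tested. A change in the mix of sorted cells and a change in RNA per cell cannot be told apart in such bulk samples.

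**Figure D3:**
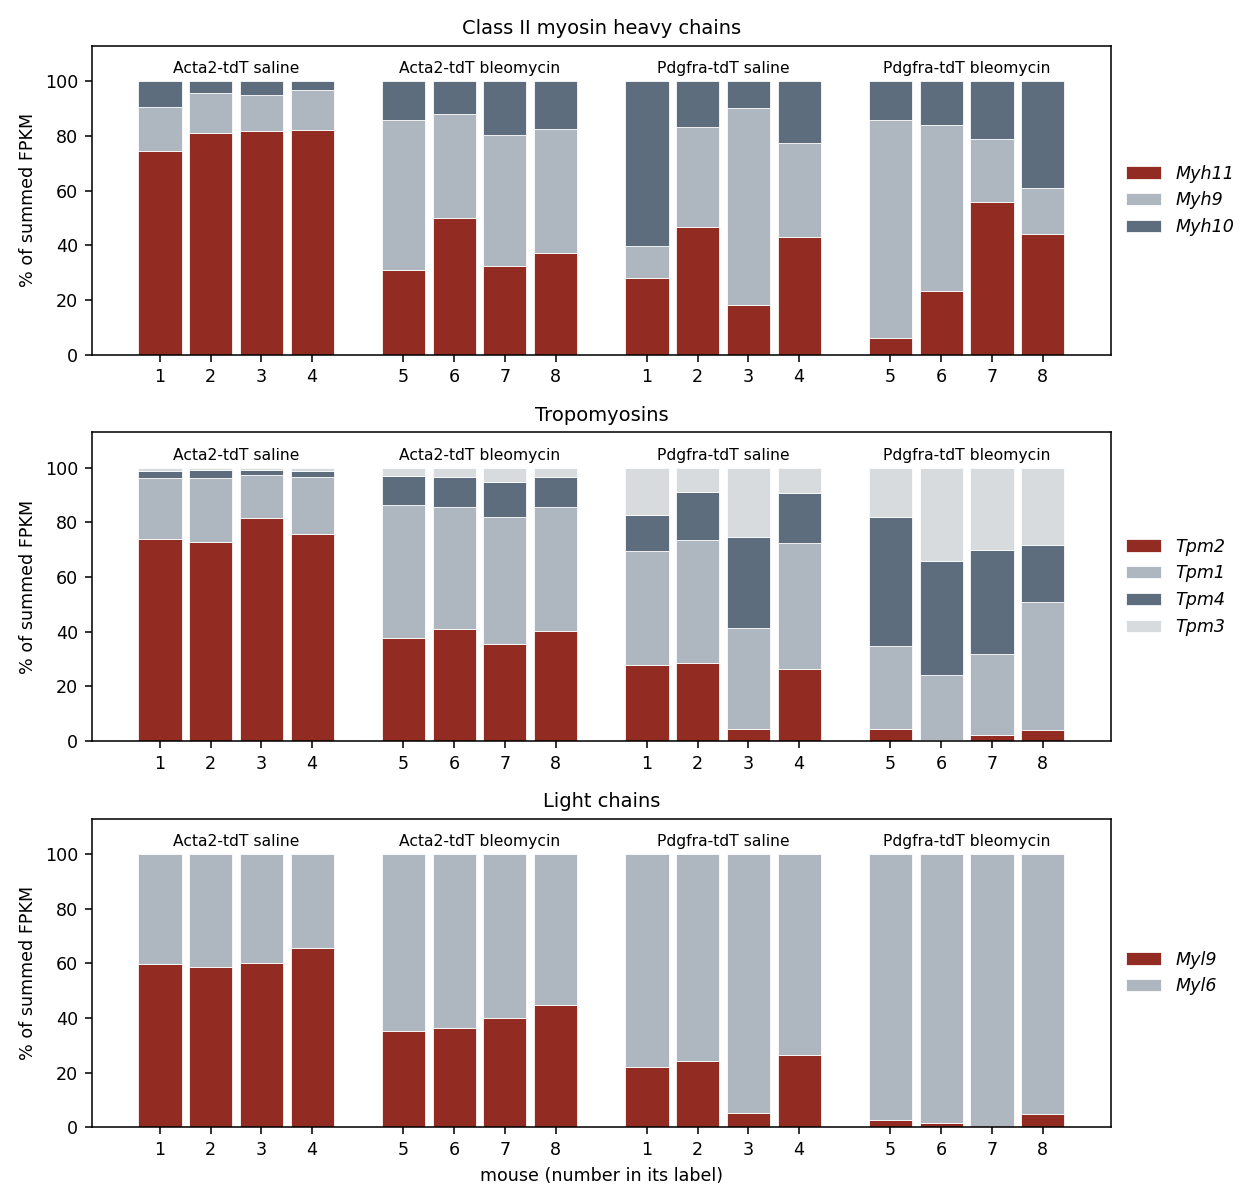
Share of each gene in the summed FPKM of its family, for each mouse, in the class II myosin heavy chains, the tropomyosins and the light chains *Myl6* and *Myl9*. Bars start at 0, and the smooth muscle form is in red at the base. Its share is lower in every *Acta2-tdT* bleomycin mouse than in every *Acta2-tdT* saline mouse in the 3 families. *Myl6* and *Myl9* are an essential and a regulatory light chain, so their shares do not set a non-muscle against a smooth muscle form.

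The order of levels within a group changed accordingly. In *Acta2-tdT* saline the medians ran from *Myl9* (227 FPKM) over *Tpm2* (198), *Myl6* (150.2), *Tpm1* (48.4), *Myh11* (9.71), *Mylk* (5.62), *Tpm4* (5.46), *Tpm3* (2.50) and *Myh9* (1.73) to *Myh10* (0.598). The ranges of *Myl9* and *Tpm2*, of *Tpm2* and *Myl6*, of *Mylk* and *Tpm4* and of *Tpm3* and *Myh9* overlapped, and the other neighbours did not. In *Acta2-tdT* bleomycin *Tpm1* was first (1190 FPKM, with a range that overlapped that of *Myl6* at 1020), and *Myh11* was ninth. In the *Pdgfra-tdT* groups *Myl6* was first, at 9.86 FPKM with saline and 67.5 with bleomycin, and every pair of neighbours overlapped.

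Markers of other cells were compared beside these shares. In *Acta2-tdT* the scaled sum of 8 smooth muscle markers ranged from 234 to 344 with saline and from 330 to 501 with bleomycin, a sum made up mostly of *Acta2*, at 186 to 267 and 223 to 341. Of the 8 tested after scaling, 3 were higher, such as *Des* (desmin, 10.3 to 13.8 and 35.6 to 61.9), and 2 were lower, *Hhip* (2.01 to 5.12 and 0.157 to 0.480) and *Synpo2* (0.975 to 1.78 and 0.175 to 0.482). Of all genes tested in this comparison, 23.9% were higher and 32.6% lower after scaling, which applies to each list here. The fibroblast marker *Pdgfra*, the pericyte marker *Cspg4* and the leukocyte marker *Itgam* entered this fit through the bleomycin mice. No *Acta2-tdT* saline mouse reached 1 FPKM for them. The sum of 8 fibroblast markers ranged from 27.6 to 37.5 with saline and from 240.5 to 358 with bleomycin, and 7 of 7 tested were higher after scaling. That of 8 pericyte markers ranged from 38.1 to 44.3 and from 8.0 to 12.3, with 4 of 7 tested lower and 1 higher. The sum of 10 leukocyte markers ranged from 989 to 1439 and from 470 to 986, but 4 of 8 tested were higher after scaling and 2 were lower. *S100a8*, a neutrophil gene that made up most of the sum with saline, had a scaled mean of 708 with saline and 271 with bleomycin, and *Lyz2*, a gene of macrophages and neutrophils, 100.2 and 309. In *Pdgfra-tdT* the sum of the 10 leukocyte markers ranged from 36.9 to 180.3 with saline and from 609 to 1577 with bleomycin. The part of these marker lists in the results was not tested.

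**Figure D4:**
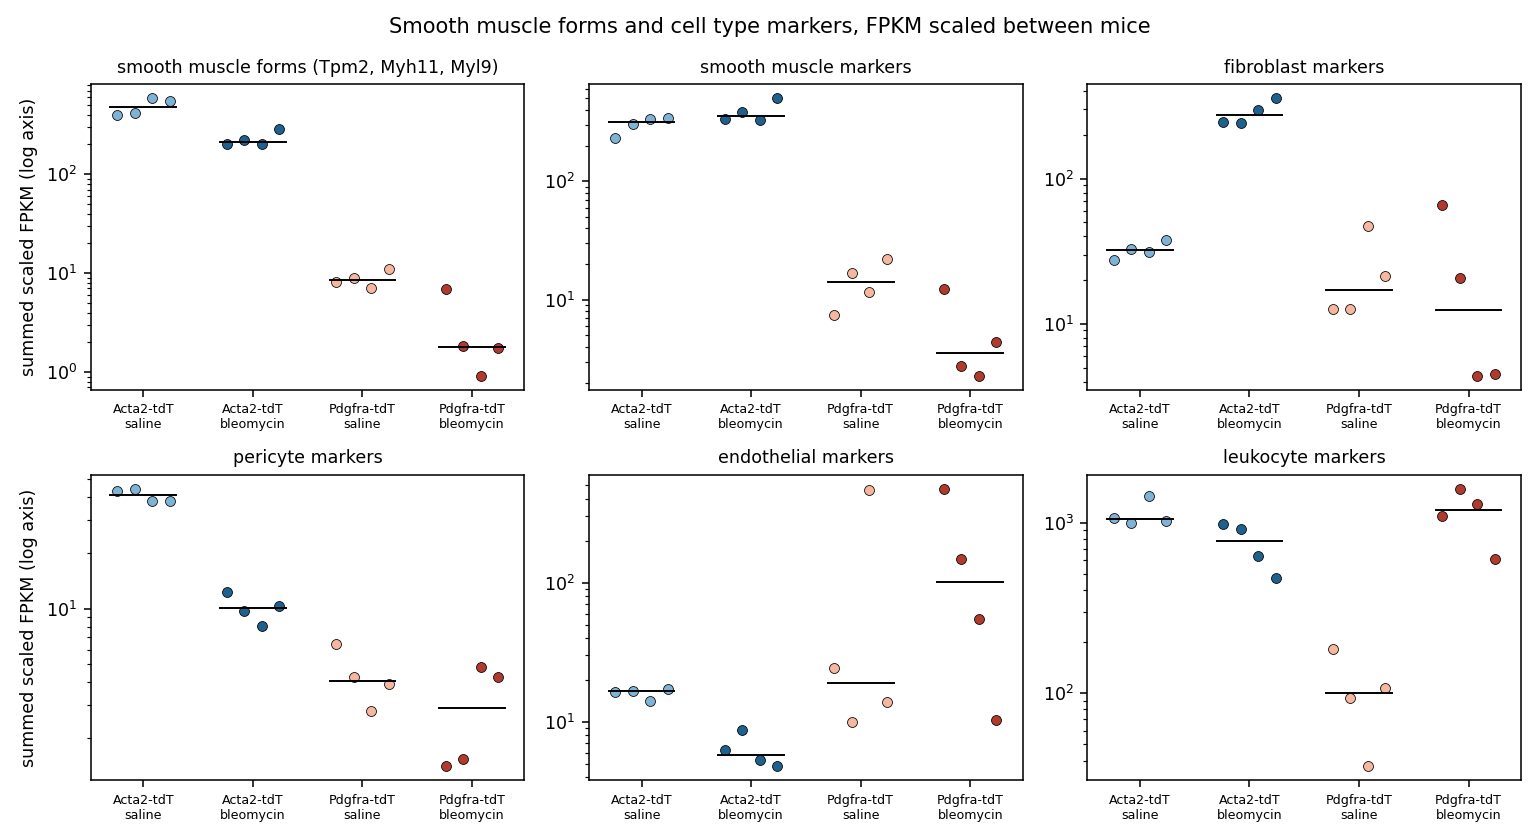
Summed scaled FPKM of the 3 smooth muscle forms and of 5 lists of cell type markers in each mouse, on a log axis, with a line at the median of 4 mice. In *Acta2-tdT* the smooth muscle forms and pericyte markers are lower with bleomycin, the fibroblast markers are higher, and the summed smooth muscle markers, mostly *Acta2*, are not lower. The smooth muscle forms are lower without overlap in *Pdgfra-tdT* too, at 7.03 to 10.9 with saline and 0.916 to 6.85 with bleomycin. The endothelial markers are highest in *Pdgfra-tdT* saline mouse 3 and *Pdgfra-tdT* bleomycin mouse 5.

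Of 22 further light chains and regulators of myosin and actin filaments, 14 were tested between the lines with saline. By limma 3 were higher in *Acta2-tdT*, where 2.72% of all genes tested were higher. They were *Ppp1r14a* (CPI-17, an inhibitor of myosin phosphatase, 3.25 ± 0.32 on the log2 scale, adjusted p = 0.00281), *Cald1* (caldesmon, 2.91 ± 0.52, adjusted p = 0.0257) and *Lmod1* (leiomodin, a nucleator of smooth muscle actin filaments, 2.01 ± 0.23, adjusted p = 0.00397). *Ppp1r14a* and *Lmod1* were under 1 FPKM in every *Pdgfra-tdT* saline mouse. They entered this fit through the *Acta2-tdT* mice, where they were high, so their values describe the level there. In *Acta2-tdT* with bleomycin 16 of 19 tested were higher as deposited (70.4% of all genes). After scaling 6 were higher and 7 lower (23.9% and 32.6% of all genes). Among those that rose were *Myl12a* (a non-muscle regulatory light chain, 1.58 ± 0.31, adjusted p = 0.00175) and *Rhoa* (a small GTPase that promotes stress fibres and contraction, 1.29 ± 0.20, adjusted p = 0.000418). The largest falls were those of *Ppp1r14a* (-2.13 ± 0.25, adjusted p = 7.14e-05), *Lmod1* (-1.51 ± 0.21, adjusted p = 0.000237) and *Prkg1* (cGMP-dependent protein kinase, -1.50 ± 0.23, adjusted p = 0.000366). The median of this list was -0.09 after scaling, beside -0.02 over all genes tested, and in *Pdgfra-tdT* 0 of 10 tested were called by limma (0.124% of all genes).

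Over the 16 mice the genes whose scaled levels were most like those of *Myh11* were *Ppp1r14a*, *Actc1*, *Lmod1*, *Ednra* and *Rgs2*, with Pearson correlations from 0.97 to 0.98 among 9415 genes ranked. Of the other 9 genes described here, *Myl9* (0.90), *Tpm2* (0.86) and *Mylk* (0.83) were closest to it, and *Tpm4* (0.03) and *Tpm3* (-0.18) were farthest. The genes most like *Myh9* were *Pdap1*, *Lsm4*, *Id3*, *Abcf1* and *Atf4* (0.95 to 0.97), and *Tpm1* (0.91), *Myl6* (0.88) and *Mylk* (0.86) were the closest of the 10. The points share 4 groups and 2 lines, so these values describe the groups as much as the mice.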

How the data were processed

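Cells sorted from lungs of 16 mice were sequenced as SmartSeq2 libraries, which do not keep the strand. The authors aligned reads with TopHat2 2.1.1 and Bowtie2 2.2.9 to mm10 (GRCm38) and deposited FPKM per gene, with 95% intervals, from Cufflinks 2.1.1 and Cuffdiff, without pooling mice. FPKM carry no counts, so the depth behind a value is unknown and tests rest on the 4 mice per group. Nothing in the sources used here says more of the replicates than that they were separate mice.

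FPKM were summed per Ensembl gene (49534 rows, 49452 genes), and 15 genes that Cufflinks did not quantify in every mouse were left out. Each pair of groups was compared with limma 3.58.1 (R 4.3.3) on log2(FPKM + 1) after keeping genes that reached 1 FPKM in 4 or more mice of that fit, as the study paired groups, and the interaction was fitted over all 16 mice. Fold changes are on that scale, which understates those of low genes. P-values were adjusted by Benjamini-Hochberg over all genes tested, with a threshold of 0.05. Shares were compared with exact two-sided permutation tests (SciPy 1.17.1, Python 3.11.15). FPKM were also scaled to the same sum over 21950 nuclear protein-coding genes. The limma step was tested on simulated data.

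The 10 genes and all lists were chosen with earlier results of these data known. All 10 were described in every mouse. From lists, up to 3 called genes with the largest rise and 3 with the largest fall, without overlap between groups, were named (1 such gene is not reported here), and the 5 genes most correlated with *Myh11* and with *Myh9*. Sharing a mouse number did not pair mice, as correlations of their deviations ran from -0.251 to 0.125. No 2 mice had identical values.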

Additional observations from a re-analysis of the deposited data

Results flagged for a closer look

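In 7 of 52 sets of 4 values tested, each of 1 gene or share in 1 group, 1 mouse lay far from the other 3 by Dixon's criterion. Chance gives about 1 in 20 per set. The sets come from the same 16 mice and are not independent, so the 7 cannot be weighed against that rate. In *Pdgfra-tdT* saline the outlying mouse was mouse 3, with log2(FPKM + 1) of 4.62 for *Tpm3*, 1.66 for *Myh9*, 6.26 for *Myl6* and 2.07 for *Mylk*, all above the other saline mice. *Tpm2* made up 4.19% of the tropomyosins in the same mouse, below the others. In *Pdgfra-tdT* bleomycin it was mouse 5, with log2(FPKM + 1) of 3.06 for *Tpm2* and 1.10 for *Myh10*. These are the mice with the highest endothelial marker sums of their groups and the most genes at 1 FPKM or more (10191 and 10942), and the part of this in the values was not tested.

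For 7 genes the response to bleomycin differed between the lines by the limma interaction test on FPKM as deposited. The extra rise in *Acta2-tdT* was 4.57 for *Tpm1*, 3.38 for *Tpm2*, 3.82 for *Tpm3*, 4.48 for *Tpm4*, 2.48 for *Myh9*, 2.13 for *Myh10* and 2.38 for *Mylk* on the log2 scale, beside a median of 1.05 over all genes tested. *Myh10* entered this fit through the *Acta2-tdT* bleomycin mice, where it was high, so its value describes that group's level. None of the 7 passed after scaling, when their adjusted p ran from 0.185 to 0.924 (limma), and *Myh11* alone of the 10 did.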

How the results depend on the processing

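Of 793 alternative values of single genes, 714 kept direction and call, 25 reversed, 37 lost and 17 gained a call. Scaling by the sum of nuclear protein-coding genes turned the bleomycin response in *Acta2-tdT* for *Tpm2* (-0.72), *Myh11* (-1.84), *Myl6* (-0.14), *Myl9* (-1.42) and *Mylk* (-0.26), and the interaction for *Myh11* (-1.77), *Myl6* (-1.66), *Myl9* (-0.23) and *Mylk* (-0.11), on the log2 scale. It changed the number of genes called to 5 between the lines with saline, to 5 in *Acta2-tdT* and to 1 for the interaction. Quantile normalization turned *Myh11* (-1.63) and *Myl9* (-0.19) in *Acta2-tdT* and *Myh11* (-1.30) and *Myl6* (-0.40) in the interaction, where 3 genes were called (1595 of all 16605). A pseudocount of 0.1 also left 3 (3463 of 16605), and no filter 4 (5510 of 49437). The scaled values without the *Pdgfra-tdT* mice that stood apart, chosen after seeing the data, gave 8 calls between the lines with saline (2850 of all 7356), *Tpm3* at 0.46 there, 3 for the interaction (2468 of all 15678), and interactions of -1.85 for *Myh11*, -1.74 for *Myl6* and -0.33 for *Mylk*. The cause of these shifts was not tested.

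Leaving out 1 mouse at a time gave 2 to 8 calls between the lines with saline (8 without *Pdgfra-tdT* saline mouse 3, when 2141 and not 237 of all genes were called), with *Tpm3* from -0.51 to 0.71 and *Tpm4* from -0.10 to 1.24. In *Pdgfra-tdT* after bleomycin *Tpm1* ran from -1.06 to 0.49 and *Tpm4* from -0.13 to 1.77, and the interaction of *Myl6* from -0.0117 to 1.73. Without *Acta2-tdT* bleomycin mouse 7 or 8 the interactions of *Tpm3* and *Tpm4* missed the threshold (limma, adjusted p from 0.0502 to 0.0533). That of *Myl9* passed without *Pdgfra-tdT* bleomycin mouse 5 (2.96, adjusted p = 0.00423). *Myh11* in *Acta2-tdT* passed without saline mouse 4 (0.82, adjusted p = 0.0460) and in a fit of all 16 mice (adjusted p = 0.0318), in which *Myl9* did not (adjusted p = 0.0603).

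With 3 against 4 mice no share can pass (smallest exact p 0.0571). Differences in share, in percentage points, ran as follows. For *Myh11* they were 40.7 to 50.2 between the lines with saline, -3.38 (without *Pdgfra-tdT* mouse 5) to 13.2 with bleomycin, -46.4 to -40.0 in *Acta2-tdT* and -9.46 to 7.13 in *Pdgfra-tdT*. For *Tpm2* they were 48.4 to 56.5, 35.1 to 37.0 and -38.5 to -35.6 in the first 3, and -24.9 to -16.8 in *Pdgfra-tdT*. For *Myl9* they were 36.8 to 44.0, 34.9 to 38.2, -23.9 to -20.5 and, in *Pdgfra-tdT*, -22.1 to -14.9, and the log2 ratio of *Myl9* to *Myl6* there differed by -2.67 (exact permutation test p = 0.0571).

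The replicate block, though the numbers do not pair mice, left 3 genes called between the lines with saline (36 of all genes, against 237) and 10 with bleomycin (9379 against 9553). Low *Pdgfra-tdT* values are imprecise, with an interval half-width of 287% of the value for *Tpm2* in the mouse at 0.0720 FPKM.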

Other observations

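Among 17 genes of the striated sarcomere, *Actc1* (cardiac actin) and *Tnnt2* (cardiac troponin T) were higher in *Acta2-tdT* than in *Pdgfra-tdT* with saline. The differences were 5.26 ± 0.44 (SE, limma, adjusted p = 0.00134) and 1.97 ± 0.25 (adjusted p = 0.00661) on the log2 scale. No other gene of that list could be tested, and 2.72% of all genes tested were higher. *Actc1* and *Tnnt2* were under 1 FPKM in every *Pdgfra-tdT* saline mouse. They entered this fit through the *Acta2-tdT* mice, where they were high, so these values describe the level there. After bleomycin *Actc1* fell in *Acta2-tdT* by 3.17 on the scaled values (limma, adjusted p = 0.000875), from 41.1 to 96.8 in the saline mice to 2.28 to 17.7 in the bleomycin mice. Of 24 unconventional myosins, motors that carry cargo or tether membranes and form no filaments, 10 were tested in *Acta2-tdT* and all 10 rose with bleomycin as deposited (70.4% of all genes), with a median of 1.71 beside 1.76 over all genes. No gene of this list reached 1 FPKM in every saline mouse, so these entered the fit through the bleomycin mice. After scaling 2 were higher, *Myo1c* (1.18 ± 0.18, adjusted p = 0.000389) and *Myo1e* (0.52 ± 0.14, adjusted p = 0.0103), and 1 was lower (23.9% and 32.6% of all genes).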
